A study of Mus musculus with 8 samples.

Results

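The members of the SLC25 family of mitochondrial carriers are described here in the livers of mice lacking Mfn1, a GTPase that fuses outer mitochondrial membranes, and in control livers. Members were all genes whose symbol in the array's annotation begins with Slc25a, apart from a gene not reported here, with every probe they have on the array. This gave 54 probes of 38 genes among 25697 probes. Livers of 8 mice, 4 controls and 4 Mfn1 LKO, were measured on Illumina mouse bead arrays. All mice were of the strain C57Bl6/Ntac, were given high fat food over 8 weeks, and a fast of 6 hours came before the livers were taken. The genotype is labelled Mfn1 Wildtype in controls and Mfn1 LKO in the others, and age and sex are not given. The titles of both groups carry the name AlbCre. This is Cre recombinase under the albumin promoter, which acts in hepatocytes and leaves the gene in other liver cells. Whether the wildtype controls carried Cre was not stated, so an effect of Cre and one of the lost gene cannot be told apart. The labels number the mice 641, 658, 661 and 663 in controls and 637, 638, 651 and 701 in Mfn1 LKO, and values below are in this order.

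Carriers of this family sit, with few exceptions, in the inner mitochondrial membrane and pass small molecules between cytosol and matrix, often by exchanging one for another. In liver they supply phosphate and ADP for ATP synthesis and move the citrate used for fat synthesis. They also run the malate and aspartate exchanges that carry reducing equivalents and gluconeogenic carbon, and they link the matrix and cytosolic steps of the urea cycle. The study asked how energy metabolism changes when Mfn1 is deleted in liver on a high fat diet, and the comparison below asks which carrier transcripts differed.

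The values are the log2 signals that the authors deposited, with a lowest value of 6.38, a median of 6.65 and a highest of 14.4 over all probes. Array medians of the linear signal lay between 96.4 and 103.9, and correlations between arrays between 0.989 and 0.996. Mfn1 was lower in all 4 Mfn1 LKO livers. Its brightest probe read 8.77, 8.81, 8.71 and 8.70 in controls and 7.53, 7.40, 7.43 and 7.32 in Mfn1 LKO, which is -1.33 on the log2 scale (SE 0.062) with an adjusted p of 9.43e-08 by limma. A second probe gave -1.32, and the third lay at the 7.54th percentile of all probes and gave 0.0073. All 7 hepatocyte markers were measured, with summed signals of 67594 to 70850 in controls and 69828 to 72530 in Mfn1 LKO. Of these the probe for Tat lay below the array median, and that for Alb at the 64.3rd percentile. The sums are set mostly by Apoa1, Ttr, Serpina1b and Cyp2e1, at or above the 99.9th percentile of all probes. They were not used to measure the share of hepatocytes. Macrophage markers (9 of 11 measured) had summed signals of 2693 to 2863 in controls and 2948 to 4174 in Mfn1 LKO, with all 9 higher on average and Cd5l below the array median. Skeletal muscle markers (5 of 5 measured, 4 below the array median) had summed signals of 454 to 476 in controls and 458 to 853 in Mfn1 LKO. In Mfn1 LKO mouse 651 the muscle gene Acta1 read 8.61, against 6.46 to 6.64 in the other 7 mice. In a whole liver, fewer cells of a type and less RNA per cell cannot be told apart.

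No carrier probe passed an adjusted p of 0.05 with limma, over all 25697 probes. The lowest adjusted p was 0.431. Over the array 3 probes passed (0.0117%), namely 2 of Mfn1 and 1 of Usp18, an interferon-induced protease (-0.66, adjusted p = 0.0372). The call of Usp18 held without control 661 and ended without any other mouse, with adjusted p-values from 0.00298 to 0.208 when 1 mouse was left out. It also ended with a common median (0.0825), with the filter on low values (0.0948) and without a variance trend (0.122). At an unadjusted p under 0.05, 4 carrier probes of 4 genes were higher (7.41%, against 4.25% of all probes), namely Slc25a3, Slc25a11, Slc25a10 and Slc25a13. A probe of Slc25a21 was the only one lower (1.85%, against 3.23%). In 3 carrier probes every Mfn1 LKO mouse exceeded every control (5.56%, against 2.28% of all probes), and in 1 every Mfn1 LKO mouse was lower (1.85%, against 2.24%). With so few probes these shares stand near those of the array. The number lower was 2 without control 641 (3.70%, against 3.04% of all probes) and 3 without Mfn1 LKO mouse 637 or 638 (5.56%, against 3.76% and 2.81%). Leaving out a mouse makes overlap less likely, and the number without overlap in either direction was then 4 to 9. It was 7 without control 641 or Mfn1 LKO mouse 701 (13.0%, against 7.97% and 7.25% of all probes) and 9 without 637 (16.7%, against 9.18%). With all mice it was 2 with arrays scaled to a common 75th percentile, where the share over all probes was not counted.

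As a list with no test, 30 carrier probes were higher and 24 lower. This is 55.6% higher, against 47.2% of all probes. The median log2 fold change was 0.006, against -0.003 over all probes, and single probes lay between -0.18 and 0.29. The median size of the change, in either direction, was 0.036 for carriers and 0.03 for all probes. For 53 of the 54 probes the 95% interval lay within 0.5 log2 units of 0, the exception being Slc25a25. The mean signal of 16 probes lay below the median of all probes, and 9 genes had only such probes. They were Slc25a18, Slc25a21, Slc25a27, Slc25a31, Slc25a35, Slc25a40, Slc25a41, Slc25a46 and Slc25a53. A probe so near the lowest signals can show little of a fall, and its interval holds for the signal, not for the transcript. Among the 38 brighter probes 22 were higher, with a median of 0.006.

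**Figure D1:**
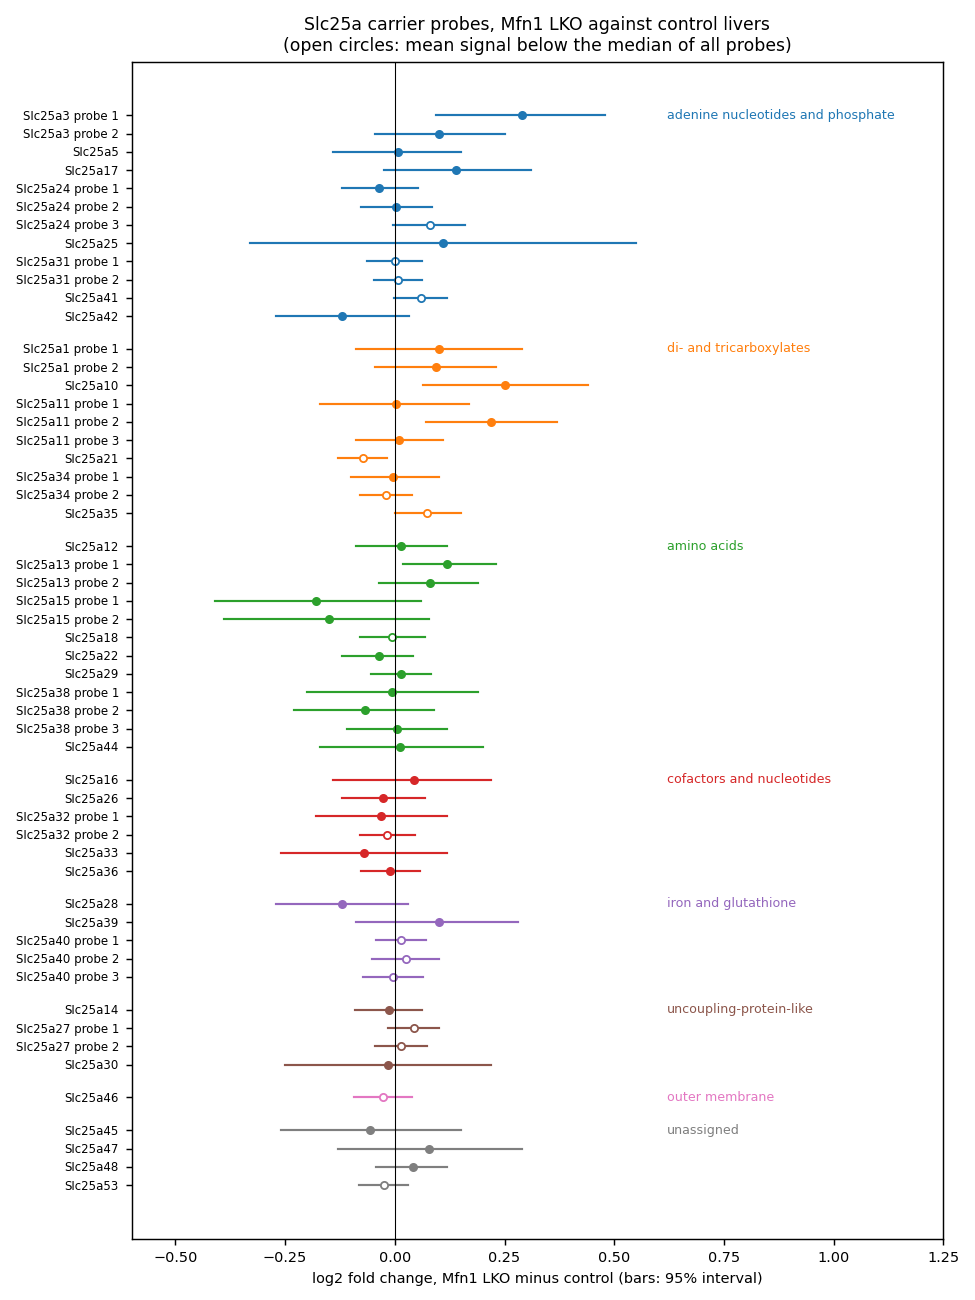
Log2 fold change (x axis, Mfn1 LKO minus control) of all 54 carrier probes by role group, where bars are 95% intervals from limma over 4 mice per group and open circles are probes whose mean signal lay below the median of all probes. All estimates lie between -0.18 and 0.29, and the widest interval is that of Slc25a25.

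**Figure D2:**
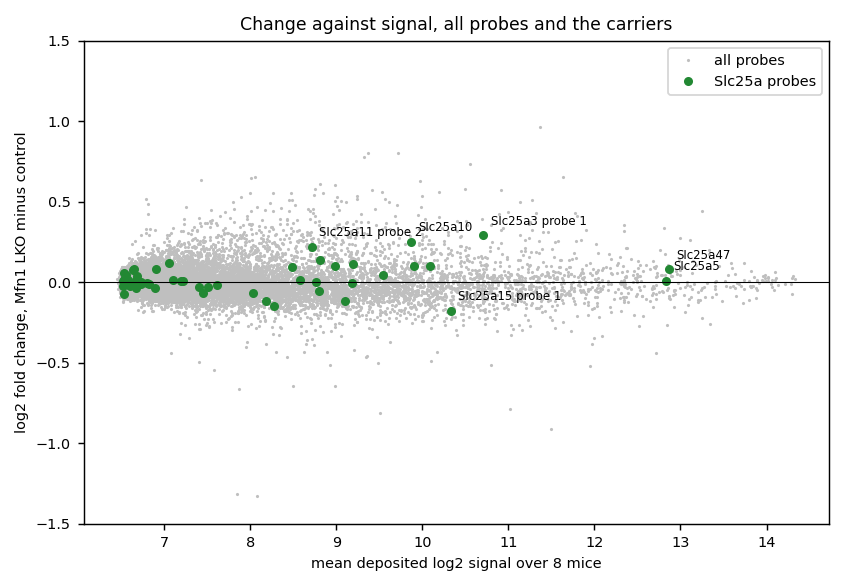
Log2 fold change (y axis, Mfn1 LKO minus control) against the mean deposited log2 signal over 8 mice (x axis), for all probes in grey and the 54 carrier probes in green. The carrier probes lie within the cloud of all probes, and the grey points near -1.3 are 2 probes of Mfn1.

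Slc25a3, the phosphate carrier that feeds ATP synthase, had the largest difference of the family with all 8 mice. Its brightest probe read 10.66, 10.71, 10.53 and 10.37 in controls and 10.85, 10.86, 10.94 and 10.76 in Mfn1 LKO. The groups did not overlap, with the lowest Mfn1 LKO mouse just above the highest control. The difference was 0.29 (SE 0.089, 95% interval 0.094 to 0.48), 1.22-fold, with an unadjusted p of 0.00648 and an adjusted p of 0.431 by limma. Mouse 651, in which Acta1 was high, had the highest value, and without it the difference was 0.26. Slc25a10, described next, had the larger difference without that mouse or without control 661 or 663. The second probe read 8.98, 8.92, 8.95 and 8.88 in controls and 9.0, 9.10, 9.09 and 8.95 in Mfn1 LKO. It differed by 0.10 with overlapping groups (95% interval -0.046 to 0.25).

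Slc25a10, the dicarboxylate carrier that exchanges malate or succinate for phosphate, read 9.64, 9.58, 9.88 and 9.87 in controls and 10.01, 10.04, 9.93 and 10.01 in Mfn1 LKO. Controls fell into a lower and a higher pair, and all Mfn1 LKO mice lay above both. The difference was 0.25 (SE 0.087, 95% interval 0.065 to 0.44), 1.19-fold, with an unadjusted p of 0.0119 and an adjusted p of 0.494 by limma. It had no other probe.

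Slc25a11, the oxoglutarate carrier of the malate-aspartate shuttle, has 3 probes that did not give the same answer. The second in brightness read 8.64, 8.69, 8.56 and 8.53 in controls and 8.85, 8.74, 8.79 and 8.93 in Mfn1 LKO. The groups did not overlap in that probe. The difference was 0.22 (SE 0.071, 95% interval 0.071 to 0.37), with an unadjusted p of 0.00719 and an adjusted p of 0.439 by limma. The brightest read 8.69, 8.68, 8.81 and 8.87 in controls and 8.83, 8.68, 8.66 and 8.88 in Mfn1 LKO, a difference of 0.0017 (95% interval -0.17 to 0.17). The third gave 0.0094 (95% interval -0.088 to 0.11). The positions of the probes in the transcript were not used here.

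The region before the transcription start is shown for these 3 carriers, which had the lowest p-values of the family. Each is the 250 bases before the start, 5′ to 3′ on the gene's strand, from RefSeq (GRCm38.p6). Capitals mark matches, on either strand, to TGCGCA (core of the site of nuclear respiratory factor 1), GGGCGG (GC box), CCAAT (the box of that name), TGACG (core of the cyclic AMP response element), AAGGTCA (core of the site of estrogen-related receptors) and TCTCGCGA. The last motif was added after the sequences were read. No matches overlapped in the 3 regions.
Slc25a3 (chr10:91123968-91124217, minus strand): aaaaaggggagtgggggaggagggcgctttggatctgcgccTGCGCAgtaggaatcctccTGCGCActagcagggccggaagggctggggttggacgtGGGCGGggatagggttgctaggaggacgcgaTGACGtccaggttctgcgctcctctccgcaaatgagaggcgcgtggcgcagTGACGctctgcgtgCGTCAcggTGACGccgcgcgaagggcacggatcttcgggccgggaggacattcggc
Slc25a10 (chr11:120491587-120491836, plus strand): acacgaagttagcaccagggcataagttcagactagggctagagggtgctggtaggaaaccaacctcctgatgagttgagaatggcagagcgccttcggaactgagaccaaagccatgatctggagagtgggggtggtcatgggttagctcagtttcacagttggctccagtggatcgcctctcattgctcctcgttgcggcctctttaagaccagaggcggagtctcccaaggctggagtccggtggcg
Slc25a11 (chr11:70647040-70647289, minus strand): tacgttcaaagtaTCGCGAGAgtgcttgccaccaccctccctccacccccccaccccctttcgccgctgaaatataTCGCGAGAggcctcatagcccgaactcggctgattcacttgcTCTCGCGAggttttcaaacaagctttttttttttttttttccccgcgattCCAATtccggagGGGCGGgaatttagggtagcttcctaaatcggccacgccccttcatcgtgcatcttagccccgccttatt

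The 3 regions share little of these letters. That of Slc25a3 (66.4% G or C) held 2 matches to TGCGCA, 4 to TGACG and 1 to GGGCGG. That of Slc25a11 (53.2%) held 3 to TCTCGCGA and 1 each to CCAAT and GGGCGG, and that of Slc25a10 (56.0%) held none. Over all 32851 promoter regions of this length in the table, TGCGCA occurred in 6.43%, TGACG in 17.8%, GGGCGG in 32.7%, CCAAT in 33.8%, AAGGTCA in 4.08% and TCTCGCGA in 0.858%. The table held 40 regions of 31 of the 38 carrier genes. Among them GGGCGG occurred in 29 regions of 23 genes, CCAAT in 18 of 16 genes and TGACG in 11 of 10 genes. TGCGCA occurred in 4 regions, and AAGGTCA and TCTCGCGA in 1 each. The median G and C content was 57.8% in carrier regions and 52.4% in all. A match is a run of letters and does not show that a factor binds.

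**Figure D3:**
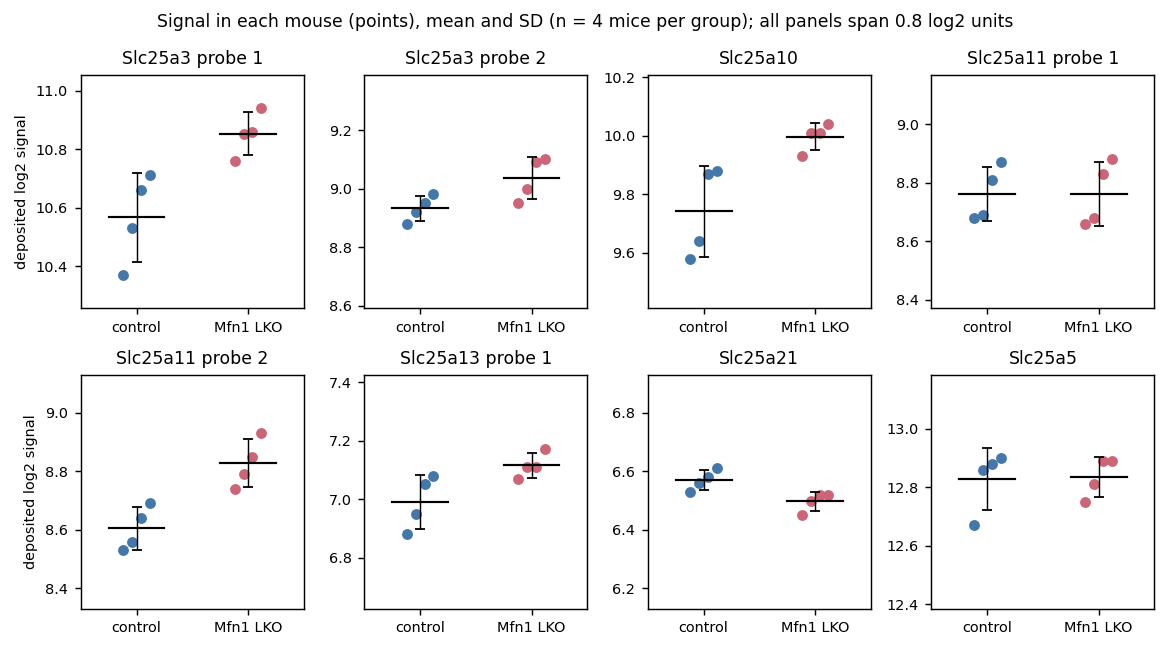
Deposited log2 signal (y axis) of 8 carrier probes in each mouse, with points for mice, a line for the mean and bars for the SD (n = 4 per group). Groups are apart for Slc25a3 probe 1, Slc25a10, Slc25a11 probe 2 and Slc25a21, and overlap in the other 4 panels.

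The remaining carriers of di- and tricarboxylates differed by less. Slc25a1 exports citrate to the cytosol, where it is split for fatty acid and cholesterol synthesis. Its brightest probe read 9.94, 9.82, 9.75 and 9.90 in controls and 9.75, 10.09, 9.99 and 9.97 in Mfn1 LKO, and 637 lay with the lowest control. The difference was 0.10 (95% interval -0.088 to 0.29, adjusted p = 0.836 by limma), and its second probe gave 0.093. The first was 0.17 without Mfn1 LKO mouse 637 and 0.055 without 638. Slc25a21, which carries oxoadipate and related acids, read 6.56, 6.53, 6.61 and 6.58 in controls and 6.45, 6.5, 6.52 and 6.52 in Mfn1 LKO. The groups did not overlap, and the difference was -0.072 (SE 0.026, unadjusted p of 0.0147, adjusted p = 0.519 by limma). The probe lay at the 11.7th percentile of all probes, so that it carries little signal above background. It was -0.12 or -0.29 after normexp background correction with an offset of 50 or 16. Slc25a35 (0.073) and the probes of Slc25a34 (-0.0031 and -0.020), carriers less well defined in mammals, had intervals that held 0. Of the 10 probes of these 6 genes 7 were higher, 2 of them at an unadjusted p under 0.05 (4.25% over all probes), and 3 lower, 1 of them at that p (3.23% over all probes).

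Among carriers of adenine nucleotides, phosphate and coenzyme A, 9 of 12 probes were higher and 3 lower. Only Slc25a3 had an unadjusted p under 0.05. Slc25a5 encodes the adenine nucleotide translocase found in most tissues, which exchanges matrix ATP for cytosolic ADP. It read 12.88, 12.67, 12.86 and 12.90 in controls and 12.89, 12.81, 12.89 and 12.75 in Mfn1 LKO. The groups overlapped almost wholly, with a difference of 0.0064 (95% interval -0.14 to 0.15). An annotated pseudogene, Slc25a5-ps, could share signal with this probe. Slc25a31, the form of male germ cells, lay at or below the 18.3rd percentile with both probes. Slc25a17, a peroxisomal carrier of coenzyme A and related nucleotides, gave 0.14 (95% interval -0.024 to 0.31). Slc25a42, which brings coenzyme A into the matrix, read 8.28, 8.15, 8.22 and 8.32 in controls and 8.29, 8.08, 8.05 and 8.10 in Mfn1 LKO. Mouse 637 lay among the controls and the other Mfn1 LKO mice below them, with a difference of -0.12 (95% interval -0.27 to 0.033, adjusted p = 0.737 by limma).

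The calcium-regulated ATP-magnesium/phosphate carrier Slc25a25 varied most between mice of all members, with a pooled within-group SD of 0.41. It read 9.20, 8.81, 9.73 and 8.83 in controls and 9.19, 9.79, 8.87 and 9.16 in Mfn1 LKO. Control 661 and Mfn1 LKO mouse 638 stood high, with 1 such mouse in each group. The difference was 0.11 (95% interval -0.33 to 0.55). Single mice set its size and sign. It was -0.0023 without control 658, 0.0038 without control 663 and -0.071 without Mfn1 LKO mouse 638, but 0.31 without control 661 and 0.24 without Mfn1 LKO mouse 651. Its relatives gave little signal or no clear difference. The 3 probes of Slc25a24 gave -0.036, 0.0035 and 0.080, and Slc25a41 gave 0.059 at the 15.1st percentile.

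Amino acid carriers showed no common direction, with 6 of 12 probes higher and 6 lower. Slc25a13 encodes citrin, the aspartate-glutamate carrier of liver, which serves the malate-aspartate shuttle and supplies aspartate to the urea cycle. Its brightest probe read 7.05, 7.08, 6.88 and 6.95 in controls and 7.17, 7.11, 7.07 and 7.11 in Mfn1 LKO. Only the highest control reached into the range of the Mfn1 LKO mice. The difference was 0.12 (SE 0.049, unadjusted p of 0.0236, adjusted p = 0.587 by limma), and the second probe gave 0.080 (95% interval -0.035 to 0.19). The first probe gave 0.27 after normexp with an offset of 16. Slc25a12, the related carrier of muscle and brain, read 7.04, 7.11, 7.12 and 7.12 in controls and 7.19, 7.08, 7.17 and 7.01 in Mfn1 LKO. Here the groups overlapped wholly, with a difference of 0.013 (95% interval -0.089 to 0.12).

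Slc25a15 exchanges ornithine for citrulline across the inner membrane and so joins the matrix and cytosolic parts of the urea cycle. Its brightest probe read 10.53, 10.29, 10.46 and 10.41 in controls and 10.40, 10.49, 10.07 and 10.02 in Mfn1 LKO. Mice 651 and 701 lay below all controls, while 637 and 638 lay among them. The difference was -0.18 (SE 0.11, 95% interval -0.41 to 0.06, adjusted p = 0.752 by limma). It lay between -0.10 (without 701) and -0.26 (without 638) when 1 mouse was left out. The second probe also had 651 and 701 lowest, at 7.90 and 8.13, and gave -0.15. In mouse 651 some urea cycle enzymes also stood low, which describes genes picked after their values were seen. Cps1, which makes carbamoyl phosphate in the matrix, read 11.93, 11.78, 11.97 and 11.94 in controls and 12.27, 11.72, 11.03 and 11.76 in Mfn1 LKO, with its brightest probe. Asl, argininosuccinate lyase, read 9.77, 9.59, 9.30 and 9.59 in controls and 10.05, 9.39, 8.76 and 9.57 in Mfn1 LKO. Mouse 637 was highest and 651 lowest of all 8 in both enzymes, while 701, low for the carrier, was just below the controls for Cps1 and among them for Asl. Otc, which joins ornithine to carbamoyl phosphate, did not share this order. Its brighter probe read 7.95, 7.92, 7.69 and 7.47 in controls and 8.04, 7.88, 7.72 and 7.9 in Mfn1 LKO, with 651 among the controls. Mouse 651 also had the high Acta1 signal, and the part of other cells in its values was not tested.

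Other amino acid carriers differed little in signal, some of them near background. The glutamate carrier Slc25a22 read 6.59, 6.71, 6.74 and 6.74 in controls and 6.65, 6.65, 6.66 and 6.67 in Mfn1 LKO. The Mfn1 LKO mice lay above control 641 and below the other controls, with a difference of -0.037 (95% interval -0.12 to 0.042) that was -0.072 without control 641 and -0.021 without 661 or 663. Slc25a44, a carrier of branched-chain amino acids, read 8.46, 8.48, 8.56 and 8.79 in controls and 8.50, 8.71, 8.65 and 8.49 in Mfn1 LKO, again with full overlap and a difference of 0.012 (95% interval -0.17 to 0.20). Slc25a38, which brings glycine into the matrix for heme synthesis, gave -0.0074, -0.068 and 0.0056 with its 3 probes. Slc25a29, a carrier of basic amino acids, gave 0.014, and Slc25a18, a second glutamate carrier, -0.0056. Slc25a22 and Slc25a29 lay at the 54.5th and 54.4th percentiles of all probes and Slc25a18 at the 25.7th. They could therefore show little of a fall, and background left in the signal would make a rise look smaller. Slc25a22 gave -0.11 after normexp with an offset of 16.

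**Figure D4:**
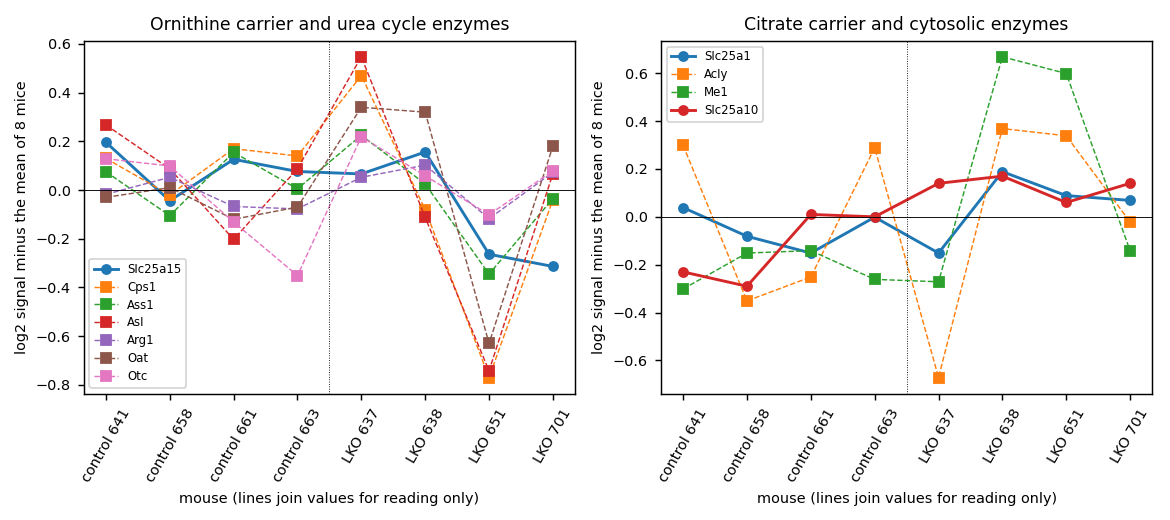
Log2 signal minus its mean over the 8 mice (y axis) for each mouse (x axis), with the ornithine carrier Slc25a15 beside enzymes of ornithine metabolism and the urea cycle on the left, and the carriers Slc25a1 and Slc25a10 beside Acly and Me1 on the right, each gene by its brightest probe. Mfn1 LKO mouse 651 is lowest for Cps1, Ass1, Asl, Arg1 and Oat but not for Otc, where controls 661 and 663 are lower, and mouse 637 is lowest for Acly.

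For the citrate carrier the mice can be set beside the enzymes that use cytosolic citrate and malate, also picked after their values were seen. Acly, which splits citrate in the cytosol, read 11.73, 11.08, 11.18 and 11.72 in controls and 10.76, 11.80, 11.77 and 11.41 in Mfn1 LKO. Me1, malic enzyme, read 8.66, 8.81, 8.82 and 8.70 in controls and 8.69, 9.63, 9.56 and 8.82 in Mfn1 LKO, with its brightest probe. Mice 638 and 651 stood highest for Acly, Me1 and Slc25a1, and mouse 637 was lowest for Acly and level with the lowest control for Slc25a1. Slc25a10 did not share this order, with 637 among its higher values.

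Carriers of iron and glutathione include Slc25a28 (mitoferrin 2, iron import) and Slc25a39 (glutathione import). Slc25a28 read 9.11, 9.20, 9.12 and 9.20 in controls and 9.06, 8.98, 8.99 and 9.11 in Mfn1 LKO. The highest Mfn1 LKO mouse met the lowest control, and the difference was -0.12 (95% interval -0.27 to 0.029, adjusted p = 0.729 by limma). Slc25a39 read 9.88, 10.16, 10.13 and 9.98 in controls and 10.14, 10.15, 10.21 and 10.03 in Mfn1 LKO, with overlap and a difference of 0.10 (95% interval -0.089 to 0.28). The 3 probes of Slc25a40, a relative of Slc25a39, lay at or below the 33.7th percentile. Red cell markers (6 of 11 measured, 2 below the array median) had summed signals of 8589 to 9904 in controls and 6428 to 16867 in Mfn1 LKO. The sums are set mostly by the globin gene Hba-a1, which read 12.23 in Mfn1 LKO mouse 637 and 13.83 in 701. Alas2, a gene of heme synthesis, differed by 0.031, and 4 of the 6 genes were higher on average. The part of red cells in the values of these carriers was not tested.

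Carriers of cofactors and nucleotides had 5 of 6 probes lower and 1 higher, between -0.07 and 0.043, none at an unadjusted p under 0.05. They were Slc25a26 for S-adenosylmethionine (-0.028), Slc25a32 for folate (-0.032 and -0.017), Slc25a33 and Slc25a36 for pyrimidine nucleotides (-0.07 and -0.010) and Slc25a16 (0.043). Slc25a33 ranged from 7.81 to 8.28 in Mfn1 LKO mice and from 7.93 to 8.16 in controls, so that its spread exceeded the difference. Of the carriers related to uncoupling proteins, Slc25a30 read 7.96, 7.40, 7.72 and 7.40 in controls and 7.73, 7.58, 7.65 and 7.46 in Mfn1 LKO. It varied more among controls (SD 0.27) than the groups differed (-0.016). Slc25a14 gave -0.014, and Slc25a27, a carrier of brain, gave 0.043 and 0.014 below the array median.

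Slc25a46 stands apart in the family, since its protein lies in the outer membrane and is known to act with the machinery of mitochondrial fusion and fission. Its probe read 6.58, 6.59, 6.69 and 6.62 in controls and 6.60, 6.62, 6.57 and 6.59 in Mfn1 LKO, with overlap and a difference of -0.027 (95% interval -0.092 to 0.039). At the 43.3rd percentile of all probes it could show little of a fall. Slc25a47, a carrier found mainly in hepatocytes, was at the 99.6th percentile. It read 12.61, 12.86, 12.78 and 13.07 in controls and 13.07, 12.92, 12.95 and 12.70 in Mfn1 LKO, and both groups covered nearly the same range (difference 0.079, 95% interval -0.13 to 0.29). Slc25a45 gave -0.057, Slc25a48 0.041 and Slc25a53 -0.025, and what these carry is less well established.

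Where a gene had several probes, their answers can be compared. This was so for 12 genes with 28 probes, and in 8 of them all probes had the same sign. Only the sign is counted here, also for differences near zero. Slc25a11 is among the 8, with 0.0017, 0.22 and 0.0094 from its brightest probe down. The share over all genes with several probes was not counted. Both probes of Slc25a1, Slc25a3, Slc25a13 and Slc25a15 went the same way. The 4 genes with both signs, Slc25a24, Slc25a31, Slc25a38 and Slc25a40, had no probe at an unadjusted p under 0.05.

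Genes around the carriers were read from 4 lists, whose counts at an unadjusted p under 0.05 stand against 4.25% higher and 3.23% lower over all probes. Of SLC25-fold proteins under other symbols, 4 of 5 were measured with 8 probes, 4 of them higher and 4 lower. At an unadjusted p under 0.05, 1 was higher and 0 lower, a probe of Mtch2, an outer membrane insertase (0.13, unadjusted p of 0.0433 by limma), while its other probes gave -0.11 (the brightest) and 0.11. Of 13 genes of carrier import, all measured with 19 probes, 11 probes were higher and 8 lower. Tomm70a, the outer membrane receptor for carrier precursors, gave 0.16 (unadjusted p of 0.00511 by limma). Its probe read 7.07, 6.97, 6.93 and 6.85 in controls and 7.18, 7.09, 7.11 and 7.10 in Mfn1 LKO, without overlap. Tomm20 gave -0.072 (unadjusted p of 0.0126 by limma) at the 30.4th percentile. These 2 were the only probes of the list at an unadjusted p under 0.05.

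Of other transport proteins of mitochondrial membranes, 13 of 18 genes were measured with 27 probes, 14 of them higher and 13 lower. At an unadjusted p under 0.05, 2 were higher and 1 lower (4.25% and 3.23% over all probes). Micu2, a gatekeeper of the calcium uniporter, gave 0.36 with the brighter of its probes (unadjusted p of 0.0025 by limma) and 0.060 with the other. Vdac2, an outer membrane channel, gave 0.23, and Mcu, the pore of the calcium uniporter, -0.11, with -0.013 from its other probe. Of enzymes that make or use what the carriers move, 23 of 25 were measured with 35 probes, 22 of them higher and 13 lower. At an unadjusted p under 0.05, 7 probes of 5 genes were higher and 0 lower (4.25% and 3.23% over all probes). They were 2 of 3 probes of Mdh1, both of Me1, 1 of 3 of Fech and the probes of Mdh2 and Pck1. The lowest p was that of Mdh2, the matrix malate dehydrogenase (0.31, unadjusted p of 0.000722, adjusted p = 0.274 by limma). It read 8.55, 8.58, 8.46 and 8.61 in controls and 8.75, 8.95, 8.92 and 8.81 in Mfn1 LKO, all above the controls. On the lower side the smallest p was that of the dimmer probe of Cps1 (-0.27, unadjusted p of 0.198 by limma), while its brightest probe gave -0.21. No probe of the 4 lists passed an adjusted p of 0.05. Their medians were -0.0015, 0.0097, 0.003 and 0.021 in the order given, against -0.003 over all probes.

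**Figure D5:**
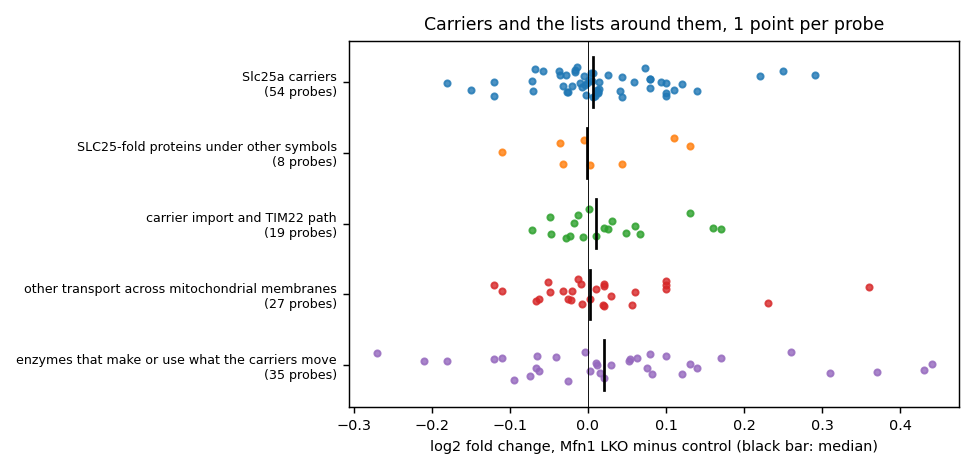
Log2 fold change (x axis, Mfn1 LKO minus control) of each probe of the carriers and of the 4 lists around them, with a black bar for the median of each. Medians lie between -0.0015 and 0.021, and the points past 0.3 belong to Micu2, Mdh2, Pck1 and Me1.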

How the data were processed

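RNA of 8 mouse livers was measured on Illumina bead arrays. Per the labels' protocols it was extracted with a tissue kit and amplified with the TotalPrep kit. The authors deposited linear signal intensities that were not normalized, and log2 values of the same 25697 probes. The deposited log2 values lay within 0.0066 of quantile normalized log2 intensities, with no background subtraction. The scanner software is not given in the sources used here, nor are detection p-values, slides or dates.

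The deposited log2 values of every probe were fitted with lmFit and eBayes with a trend in limma 3.58.1 (run in R 4.3.3). Tests were two-sided, p-values were adjusted by the method of Benjamini and Hochberg over all 25697 probes, with a threshold of 0.05 and no filter on low values. The fit was tested on simulated data. Background left in the signal makes fold changes of dim probes smaller than the change in transcript. Of the probes 23978 carry a symbol in GEO's platform annotation and 1719 are unnamed here. All 38 carrier genes matched RefSeq (GRCm38.p6) by gene ID and symbol. A gene of the family, and Slc25a4, Slc25a37 and Slc25a51, are not analysed here. Probes of a gene are numbered from the brightest, as names only.

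Groups came from the titles, with 1 mouse per array. The p-values set the group difference against the spread between mice, which limma moderates with that of other probes. The number of arrays limits the precision. Values in all mice are given for carrier probes with an unadjusted p under 0.05 and for the brightest probe of the measured ones among a list of carriers with a known substrate or place in liver, and values of other genes by the smallest p of their list on each side. Other genes with values by mouse, which include Slc25a30, the second probe of Slc25a3, Cps1, Asl, Otc, Acly and Me1, were picked after their values were seen. The members and lists were chosen with earlier results of these data known. Alternatives were background correction by normexp (offsets 50 and 16), scaling without a quantile step (a common median, or a common 75th percentile), a filter (above the array median in at least 4 arrays), eBayes without a trend or robust, array weights, 1 probe a gene, and each mouse left out. Tables and plots were made in Python 3.11.15 (matplotlib 3.10.9).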

Additional observations from a re-analysis of the deposited data

Results flagged for a closer look

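Here 3 carrier probes had a mouse far from the other 3 of its group, out of 108 groups of 4 looked at, where chance gives about 1 in 20. Slc25a5 read 12.67 in control 658, against 12.86 to 12.90 in the other controls. The dimmest probe of Slc25a38 read 7.07 in Mfn1 LKO mouse 651, against 7.25 to 7.28. The brighter probe of Slc25a27, below the array median, read 6.53 in Mfn1 LKO mouse 637, against 6.59 to 6.60.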

How the results depend on the processing

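No carrier probe passed an adjusted p of 0.05 under any of the 17 alternatives, and Mfn1 passed under all of them (-1.83 to -1.29). The number of carrier probes higher at an unadjusted p under 0.05 was 1 with a common median and 7 without a trend. The number lower was 0 with a common 75th percentile or the filter, 2 without a trend, and 1 to 3 with 1 mouse left out. Probes whose groups do not overlap numbered 2 with a common 75th percentile and 4 to 9 with 1 mouse left out. Shares over all probes were counted for the main fit and with 1 mouse left out, not under the other settings. Counts under those settings thus have no background share beside them and are no result about the carriers. The median log2 fold change of carrier probes lay between -0.0069 and 0.013. Of 286 alternatives of the 18 named probes, 265 kept the direction. The other 21 belong to 5 probes with small differences. Slc25a5 gave -0.0087 with a common median, -0.027 with a common 75th percentile, -0.0055 with array weights and -0.045 to 0.036 with 1 mouse left out. The brightest Slc25a11 probe gave -0.0071 with a common 75th percentile, -0.006 with array weights and -0.038 to 0.038. With 1 mouse left out Slc25a12 lay between -0.013 and 0.047, Slc25a25 between -0.071 and 0.31 and Slc25a44 between -0.03 and 0.085. Among probes that kept their direction, Slc25a47 lay between 0.0053 and 0.16, Slc25a39 between 0.042 and 0.14 and Slc25a46 between -0.041 and -0.0026 when 1 mouse was left out. Over the array, 99 probes passed with a common 75th percentile, 17 with robust estimation, 9 without Mfn1 LKO mouse 637 and 1 with 1 probe a gene, against 3. The cause was not tested. No paired analysis was made, because the labels used here do not link any control to an Mfn1 LKO mouse. Signals near background limit what the 16 dim probes can show, and also those just above the median of all probes.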
